A study of Rattus norvegicus with 11 samples.

Results

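Rats that had undergone electrode implantation and thalamic stimulation were compared with naive rats, so that the difference covers the operation and the stimulation together. The comparison used the 4 arrays labelled as hippocampi of stimulated (DBS) rats and the 3 labelled as hippocampi of naive rats, 7 of the 11 arrays of the series, and all 45220 numbered features of each array. Arrays were chosen by their titles, not by any measured value. DBS stands for deep brain stimulation, here high-frequency stimulation of the ventrolateral thalamus for 1 hour daily on 14 days through an implanted electrode. Sham rats, the group of the remaining 4 arrays, carried an electrode but received no current. Naive rats had neither, and were handled in a similar way to the stimulated rats. All rats were male albino Wistar rats aged 12 weeks.

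Each array carried RNA from the hippocampi of 3 rats pooled before labelling, so that 12 DBS rats, 12 sham rats and 9 naive rats stood behind the values, and the variation between rats of a pool could not be seen. Every value is a log ratio of a hippocampal pool (Cy5) to a common reference (Cy3) of hippocampal, thalamic and cortical tissue, which itself contained tissue of 4 naive, 5 sham-operated and 4 stimulated rats. A value of 0 therefore means the level of this mixed brain reference, a positive value a higher level and a negative value a lower level. The log base and the direction of the ratio are not stated in the sources used here. The base is taken as log2 and the hippocampal pool as the numerator, and folds and the words higher and lower rest on both. Because bulk tissue was measured, more cells of a type and more RNA per cell cannot be told apart.

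The hippocampus is a cortical structure of the temporal lobe that serves memory and spatial navigation and that is prone to seizures. The ventrolateral thalamus relays signals from the cerebellum and basal ganglia to the motor cortex. High-frequency stimulation of deep nuclei is used clinically against tremor and other movement disorders, and in some forms against epilepsy. Implanting an electrode also injures tissue along its track, and reactive astrocytes and microglia are known to gather around such implants.

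No gene is named here. The gene names of the platform annotation do not match the rows of the value table, so results are given by array feature and by sets of near-identical features, and the hippocampal label could not be checked on marker genes. Control features, which such arrays also carry, could not be told from the others and remained in the tests. No sequence could be tied to a feature.

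DBS hippocampi differed from naive hippocampi in 3694 of the 45220 features (8.17%; limma, adjusted p under 0.05), of which 2081 (4.6%) were higher and 1613 (3.57%) were lower in DBS. The increases were fewer in small sizes and far more frequent in large ones. A difference of under 1.2-fold was found for 371 of the higher features and 735 of the lower ones. Between 1.2-fold and 1.5-fold there were 1006 higher and 786 lower features, and between 1.5-fold and 2-fold 445 higher and 79 lower. Changes of 2-fold to 4-fold numbered 213 higher and 12 lower, and changes of at least 4-fold 46 higher and 1 lower. Grouped by near-identical values as described below, the rises of at least 4-fold made 19 profiles that held 46 features. The 1 lower feature, 17464, had overlap between DBS and naive arrays and lost its call in 13 of 19 alternative fits. The direction was therefore lopsided by size: at or above 2-fold, 259 features rose (0.573% of all features) and 13 fell (0.0287%).

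**Figure D1:**
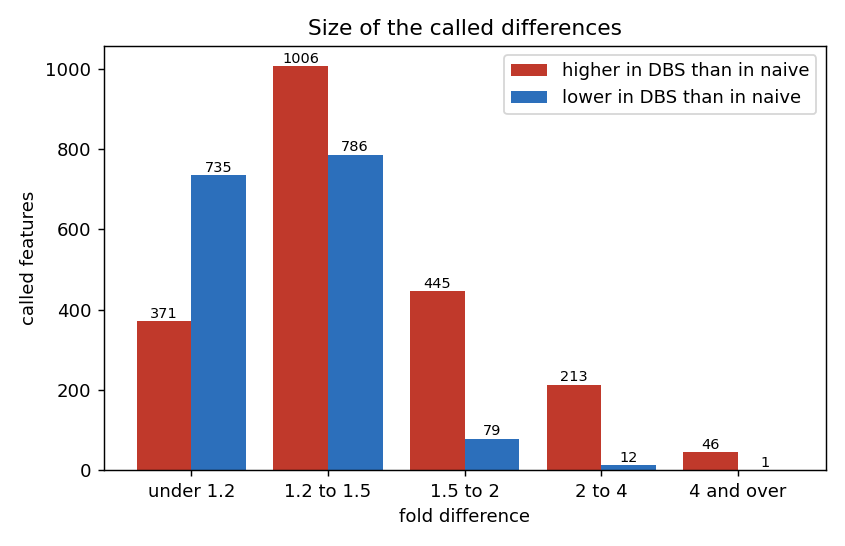
Number of called features (y axis) by the size of the fold difference between DBS and naive (x axis), with features higher in DBS in red and features lower in DBS in blue. Lower features outnumber higher ones below 1.2-fold (371 higher, 735 lower), and at 4-fold and over 46 are higher and 1 is lower. The rises of at least 4-fold make 19 profiles of near-identical features, and the 1 lower feature has overlap between DBS and naive arrays.

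Counts of features without overlap, which need no model of the spread, ran the other way. DBS and naive arrays were free of overlap in 20.1% of the features. All 4 DBS arrays lay above all 3 naive arrays for 4066 features (8.99%) and below them for 5041 features (11.1%). The mean difference was negative for 56.6% of all features, with a median of -0.02. Of the called features, 2065 of the 2081 higher ones and 1587 of the 1613 lower ones had no overlap, and 16 and 26 did overlap.

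The number of calls depended on the naive arrays. Leaving out naive replicate 2 gave 2083 calls, 1410 of them higher, and leaving out naive replicate 3 gave 2339, 1513 of them higher. Without naive replicate 1 there were 2773 calls. Leaving out a DBS array gave 2840 to 3717. Of the 3694 features, 1802 (48.8%) kept the call and its direction when each of the 7 arrays was left out in turn, 1288 of them higher and 514 lower. The large increases were among these: 250 of the 259 features at least 2-fold higher and 9 of the 13 at least 2-fold lower kept the call in all 7 fits.

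Set against the mixed brain reference, the higher features mostly moved across its level. Their median log2 ratio was 0.22 in DBS and -0.25 in naive. The mean was above 0 in DBS and below 0 in naive for 1361 of the 2081 (65.4%), and for 12.2% of all features. Features called for a difference straddle a middle level more readily than others, and the reference held tissue of all groups. The shares of this paragraph are therefore a description and not a test. Among the 259 features at least 2-fold higher this count was 241 (93.1%), with a median of 0.78 in DBS and -0.63 in naive. The lower features had a median of -0.11 in DBS and 0.16 in naive, and 446 of the 1613 (27.7%) stood below 0 in DBS and above 0 in naive, against 12.9% of all features. The 13 features at least 2-fold lower had a median of -0.11 in DBS and 1.15 in naive.

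**Figure D2:**
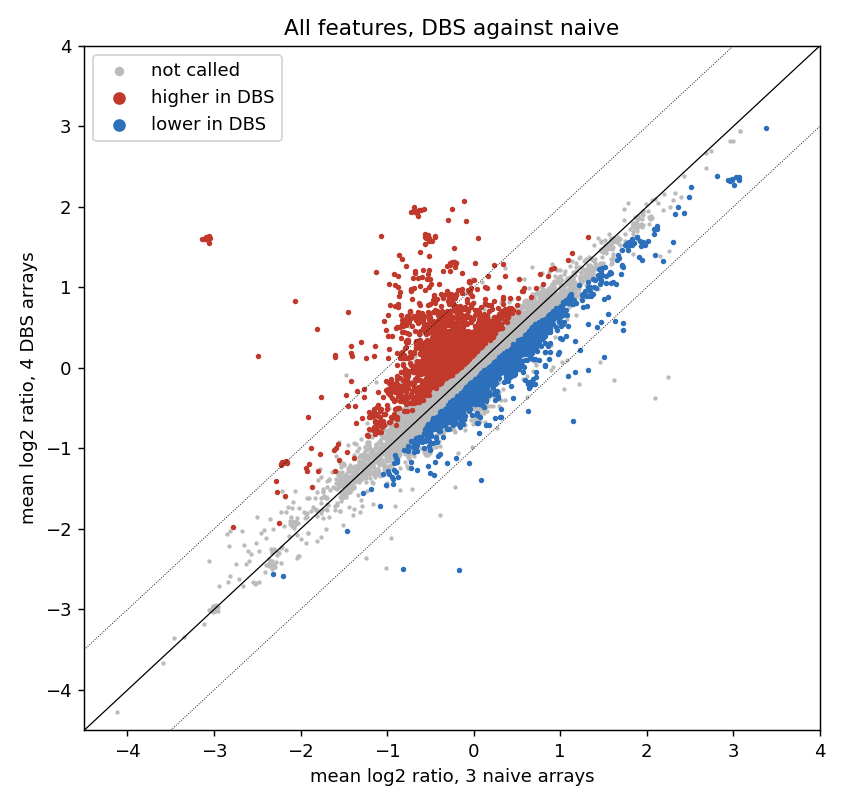
Mean log2 ratio to the reference over the 4 DBS arrays (y axis) against the mean over the 3 naive arrays (x axis), 1 point per feature, with called features coloured by direction. The solid line marks equality and the dotted lines a 2-fold difference. At the far left, the group of points high above the solid line is a set of 10 features at -3.08 in naive and 1.61 in DBS.

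Where a feature stood in sham hippocampus, measured on arrays that do not enter the difference, went with the direction of its change. Of the 508 features with a sham mean of at least 1, which is at least 2-fold above the reference, 4 (0.787%) were called higher and 110 (21.7%) were called lower in DBS than in naive. Of the 1330 features with a sham mean from 0.5 to 1, 36 (2.71%) were called higher and 219 (16.5%) lower, and the lower calls were 81 (6.09%) without naive replicate 2 and 114 (8.57%) without naive replicate 3. From 0.2 to 0.5 the shares were 4.92% higher and 5.17% lower of 4800 features. In the middle, from -0.2 to 0.2, the shares were 4.19% higher and 1.82% lower of 31047 features. From -0.5 to -0.2 they were 6.67% higher and 6.25% lower of 5069 features, and from -1 to -0.5 they were 6.77% higher and 7.38% lower of 1788 features. Below -1 they were 6.64% higher and 3.39% lower of 678 features. A single array moved the last pair: without DBS replicate 2 it was 5.9% higher and 6.05% lower, and without naive replicate 3 it was 5.31% and 1.47%. Lower calls were thus more frequent than in the middle bin on both sides of the scale, while the bins in which they outnumbered higher calls several times were the 2 of highest sham level. Near-identical features were counted singly in these shares. A set of 9, described below, gave 9 of the 110 lower calls, and a set of 8 gave 8 of the 45 higher calls below -1.

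The shift of these 508 features was seen on each array. Their median log2 ratio was 1.26, 1.22, 1.17 and 1.28 on DBS replicates 1 to 4, against 1.38, 1.46 and 1.39 on naive replicates 1 to 3. Every DBS array was below every naive array. The DBS mean was below the naive mean for 423 of the 508 (83.3%), against 56.6% of all features. In the lower direction 155 (30.5%) had no overlap, against 11.1% of all features, and in the higher direction 15 (2.95%), against 8.99% of all features. The called decreases among them had a median of -0.40. The share called lower was 16.1% after quantile normalization, 17.1% when the sham arrays were left out of the fit, and 12.2% without naive replicate 2. In the 678 features below -1 the array medians overlapped, at -1.41, -1.28, -1.45 and -1.44 in DBS and -1.46, -1.45 and -1.39 in naive.

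**Figure D3:**
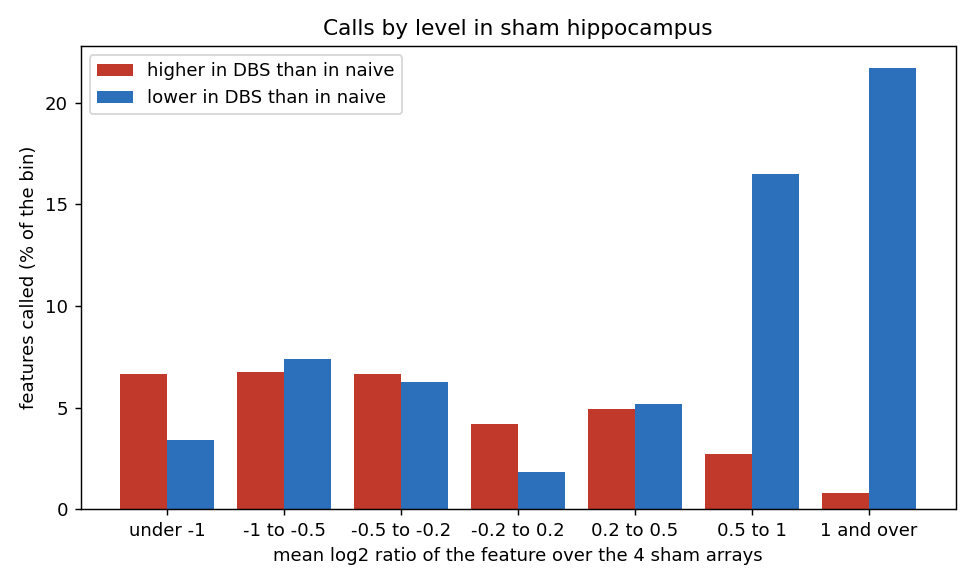
Share of features called higher (red) or lower (blue) in DBS than in naive (y axis, % of the features of a bin), by the mean log2 ratio of the feature over the 4 sham arrays (x axis). In the 2 bins of highest sham level the lower calls reach 16.5% and 21.7%, and the higher calls 2.71% and 0.787%; without naive replicate 2 the lower calls are 6.09% and 12.2%.

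A set of 9 near-identical features stood near the top of the scale. It was picked out after the values were seen, among features of high naive level. Naive values enter the difference, so this choice favours a decrease, and the difference is a description and not a test. Its set mean was 2.24, 2.15, 2.43 and 2.55 on the DBS arrays, 2.48, 2.64, 2.48 and 2.46 on the sham arrays and 2.93, 3.14 and 2.92 on the naive arrays. All 9 features fell in DBS relative to naive, by 0.66 on the log2 scale (SE 0.09, limma adjusted p 2e-04 to 0.00406), a 1.58-fold difference. After quantile normalization the difference was -0.39 and the call was lost (median limma adjusted p = 0.112). DBS and sham arrays overlapped in this set, and none of the 9 passed for DBS against sham (difference -0.17, SE 0.09, limma adjusted p 0.148 to 0.566). Between sham and naive 6 of the 9 passed, at -0.48.

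Arrays of this kind print some probes several times, so that near-identical features must not be counted as separate changes. The 272 features changed at least 2-fold were grouped into sets whose members differed from each other by a root mean square of at most 0.15 over the 11 arrays. This gave 129 profiles, 118 rising and 11 falling, of which 78 were lone features, 40 were sets of 2 to 4 and 11 were sets of 5 or more. The 11 larger sets held 94 of the 272 features, and 6 of them had exactly 10 members. With limits of 0.1 and 0.2 the number of profiles was 176 and 97. The sets were formed from the values themselves and are a description, and their p-values are those of the member features in the fit over all 45220 features.

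**Figure D4:**
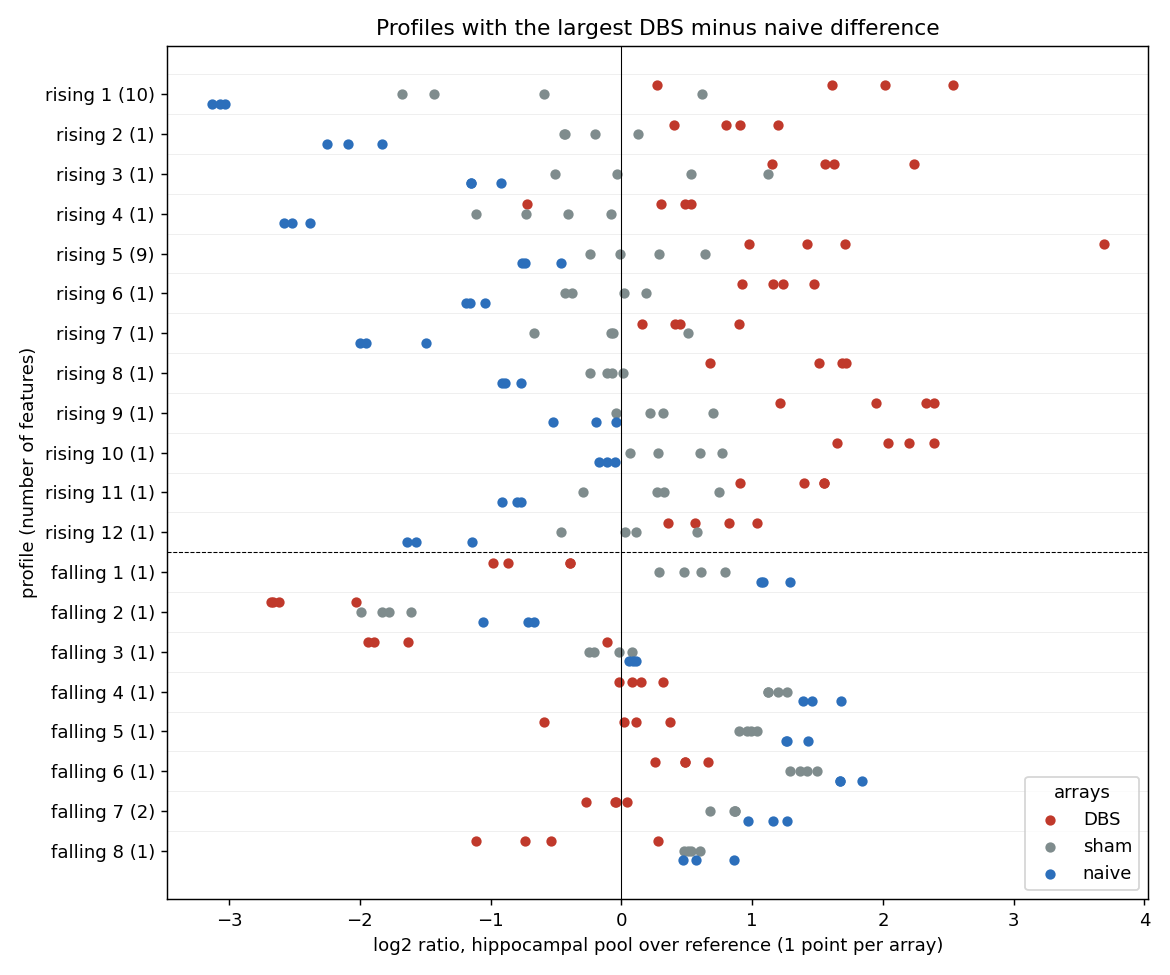
Log2 ratio to the reference (x axis) on each array for the 12 rising and 8 falling profiles with the largest difference between DBS and naive (y axis, with the number of features in brackets). Points are arrays, DBS in red, sham in grey and naive in blue. DBS and naive points do not overlap in any of the 20 profiles because only features without overlap were taken. Sham points lie mostly in between.

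The largest difference, rising profile 1, belonged to a set of 10 features, which includes features 27095 and 2583, the features with the largest increases. The set mean was 1.61, 2.02, 2.54 and 0.27 on the DBS arrays, 0.62, -0.59, -1.43 and -1.68 on the sham arrays and -3.07, -3.03 and -3.13 on the naive arrays. The naive arrays lay close together, while both operated groups spread over more than 2 log2 units, and DBS replicate 4 fell below sham replicate 1. The increase over naive was 4.69 (SE 0.53, limma adjusted p 0.000109 to 0.000165), or 25.8-fold, with a gap of 3.30 between the lowest DBS and the highest naive array. Feature 27095 alone differed by 4.74 (SE 0.54, limma adjusted p = 0.000124) and feature 2583 by 4.72 (SE 0.52, limma adjusted p = 0.000109). The difference was 2.38 for DBS against sham (10 of 10 features called) and 2.31 for sham against naive (0 of 10 called, limma adjusted p 0.0615 to 0.0838).

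Another set started from the same low level and was not called. Its 32 near-identical features, picked out after the values were seen, averaged -2.95, -2.90, -2.99 and -3.10 on the DBS arrays and -2.95, -3.12 and -2.93 on the naive arrays. The difference was 0.01 (SE 0.07), and none of the 32 passed the test (limma adjusted p 0.709 to 0.996; median 0.733 to 0.941 over the alternatives).

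Rising profile 2 was a lone feature at 1.20, 0.91, 0.80 and 0.40 on the DBS arrays, 0.13, -0.20, -0.44 and -0.43 on the sham arrays and -1.83, -2.25 and -2.09 on the naive arrays. None of the 3 groups overlapped. It was 7.39-fold higher in DBS than in naive (log2 2.89, SE 0.18, limma adjusted p = 4.5e-06). The step of 1.06 between DBS and sham also passed (limma adjusted p = 0.0039), as did that of 1.82 between sham and naive (limma adjusted p = 0.00101).

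Of the 12 rising profiles of largest difference, 10 were lone features and 2 were sets. Their log2 differences between DBS and naive were 4.69 to 2.15, with limma adjusted p at or below 0.00666 for every feature in them. Only called features without overlap between DBS and naive arrays were taken, so the lack of overlap follows from the choice. They parted in how the sham arrays lay. In rising profiles 1, 4, 7 and 12 the sham arrays overlapped DBS and stood clear of naive. Profile 4 had 0.49, 0.30, 0.53 and -0.72 in DBS, -0.08, -0.73, -0.41 and -1.11 in sham and -2.52, -2.58 and -2.38 in naive. Its difference of 2.64 between DBS and naive passed (SE 0.28, limma adjusted p = 7.84e-05), as did the 1.91 separating sham from naive (limma adjusted p = 0.0094), while the 0.74 between DBS and sham did not pass (limma adjusted p = 0.189). Profiles 7 and 12 likewise passed for sham against naive, at 1.73 and 1.52, and not for DBS against sham, at 0.56 and 0.63 (limma adjusted p 0.241 and 0.137).

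In rising profiles 8, 9 and 10 the step between DBS and sham was the one that passed. The same held in profiles 1 and 3, and for 2 of the 9 features of profile 5. Both steps passed in profiles 2, 6 and 11. In profile 3 the steps were nearly equal, at 1.37 for DBS against sham (limma adjusted p = 0.0266) and 1.35 for sham against naive (limma adjusted p = 0.082). Whether the steps of a profile differed in size was not tested. Profile 10 had 2.20, 2.04, 2.39 and 1.65 on the DBS arrays, 0.77, 0.60, 0.07 and 0.28 on the sham arrays and -0.05, -0.11 and -0.17 on the naive arrays. All 3 groups were apart. DBS exceeded naive by 2.18 (SE 0.17, limma adjusted p = 1.19e-05) and sham by 1.64 (limma adjusted p = 7e-04), and the 0.54 between sham and naive did not pass (limma adjusted p = 0.24). Profiles 8 and 9 exceeded naive by 2.26 and 2.22 and sham by 1.51 and 1.67, and their differences of 0.75 and 0.55 between sham and naive did not pass (limma adjusted p 0.115 and 0.453). These comparisons share arrays with the one between DBS and naive, so their values are set side by side and not counted as agreement. Of all 118 rising profiles, 88 had a feature called for DBS against sham and 59 had a feature called for sham against naive. Across all features, the called share was 2.82% for DBS against sham, and the share for sham against naive was 0.931%.

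Rising profile 5, a set of 9 features, was carried unevenly by the DBS arrays. Its mean was 1.71, 1.42, 3.69 and 0.98 in DBS, 0.64, 0.29, -0.01 and -0.24 in sham and -0.74, -0.46 and -0.76 in naive. DBS replicate 3 stood 1.98 above the next DBS array. The difference between DBS and naive was 2.60 (SE 0.48, limma adjusted p 0.00261 to 0.00666), a 6.07-fold increase. It was 2.02 without DBS replicate 3 (median limma adjusted p = 0.000125), and at most 2.93 in the other alternative fits.

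**Figure D5:**
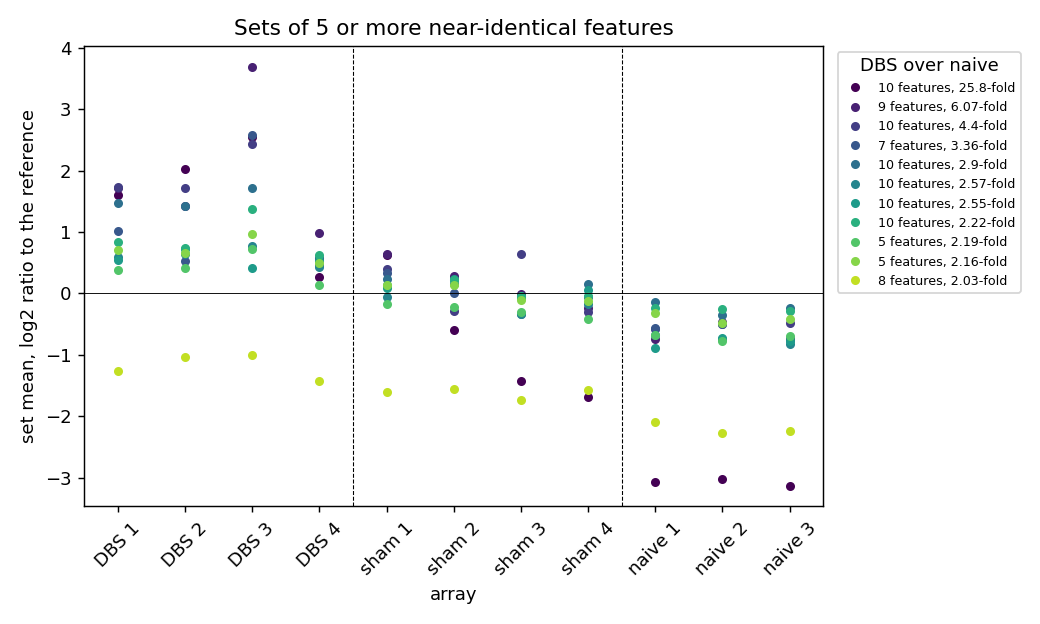
Mean log2 ratio to the reference (y axis) of the 11 sets of 5 or more near-identical features changed at least 2-fold, on each array (x axis), 1 point per set and array, coloured from the largest (dark) to the smallest (light) fold of DBS over naive. All 11 sets are higher in DBS. DBS replicate 4 is below the other DBS arrays in most sets, and the set of 10 features with the 25.8-fold difference is the lowest one in naive.

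All 11 sets of 5 or more features rose. Apart from the sets with 25.8-fold and 6.07-fold differences, they were 2.03-fold to 4.40-fold higher in DBS. A set of 10 features had tight groups throughout, at 0.55, 0.72, 0.41 and 0.53 in DBS, 0.08, 0.23, -0.08 and 0.06 in sham and -0.89, -0.73 and -0.78 in naive. Its difference between DBS and naive was 1.35 (SE 0.09, limma adjusted p 1.39e-06 to 7.2e-06), and all 10 features also passed between DBS and sham, at 0.48, and between sham and naive, at 0.87. A further set of 10 differed by 1.36 between DBS and naive (SE 0.11), with all 10 features called in each of the 3 comparisons. The set of 8 was the only one of the 11 that stayed below the reference in DBS. It averaged -1.26, -1.03, -1.01 and -1.42 in DBS, -1.60, -1.56, -1.74 and -1.58 in sham and -2.09, -2.28 and -2.24 in naive, a 2.03-fold increase over naive. On the log2 scale this was 1.02 (SE 0.09, limma adjusted p 1.5e-05 to 5.34e-05).

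The rising profiles varied far more between DBS arrays than between naive arrays. Over the 118 profiles, the range between arrays of a group had a median of 0.63 in DBS, 0.47 in sham and 0.14 in naive, with 4, 4 and 3 arrays. It exceeded 1 in 26 profiles in DBS, 15 in sham and 0 in naive. Between pairs of arrays, which does not depend on their number, the 259 features differed by a median of 0.318 in DBS and 0.0982 in naive, and DBS was the wider group for 93.4% of them. Over all features these medians were 0.102 in DBS and 0.0837 in naive, and DBS was wider for 60.7%. The SE of the fit is shared over the groups and can be too small for such features. With a weight for each group, 3901 features were called, 3676 of them among the 3694. Such a weight is the same for all features, so it cannot adjust for the wider DBS spread of these 259.

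DBS replicate 3 was the highest DBS array in 73 of the 118 rising profiles, and DBS replicate 4 was the lowest in 74. Both held in 60 profiles. Over the 259 features the median log2 ratio was 0.81, 0.73, 0.91 and 0.53 on DBS replicates 1 to 4, against -0.59, -0.62 and -0.65 on naive replicates 1 to 3. Expressed as a share of the mean difference between DBS and naive, each DBS array's own distance from the naive mean had a median of 1.01, 1.02, 1.18 and 0.79. A smaller group ran otherwise: DBS replicate 4 was the highest in 15 profiles, and DBS replicate 3 the lowest in 22. Rising profile 7 had DBS replicate 4 highest, with 0.41, 0.16, 0.45 and 0.90 in DBS and -1.49, -2.00 and -1.95 in naive, and rising profile 11 had DBS replicate 3 lowest, with 1.55, 1.55, 0.91 and 1.40 in DBS and -0.80, -0.91 and -0.77 in naive.

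The falling profiles were few and started mostly above the reference. The largest decrease without overlap, falling profile 1, was at feature 4623. It had -0.39, -0.39, -0.98 and -0.87 in DBS, 0.61, 0.29, 0.79 and 0.48 in sham and 1.08, 1.07 and 1.29 in naive. The groups were apart, with DBS below the reference and sham and naive above it. It was 3.50-fold lower in DBS than in naive (log2 -1.81, SE 0.15, limma adjusted p = 1.65e-05), and lower than in sham by -1.20 (limma adjusted p = 0.00119).

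Feature 3387, falling profile 2, was below the reference in every group. Its values were -2.66, -2.03, -2.62 and -2.68 in DBS, -1.78, -1.99, -1.61 and -1.83 in sham and -0.71, -1.06 and -0.67 in naive. DBS replicate 2 stood apart from the other DBS arrays but below all sham arrays. The difference between DBS and naive was -1.69 (SE 0.15, limma adjusted p = 2.29e-05), with -0.70 for DBS against sham (limma adjusted p = 0.0187) and -0.99 for sham against naive (limma adjusted p = 0.0111). Among the 11 falling profiles it was the only one with a feature called for sham against naive, while 9 had a feature called for DBS against sham.

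Falling profiles 4, 6 and 7 had narrow groups, while the DBS arrays of profile 5 spread from -0.59 to 0.37. Profile 4 had 0.15, 0.08, -0.02 and 0.32 in DBS, 1.20, 1.27, 1.12 and 1.12 in sham and 1.46, 1.39 and 1.68 in naive. The sham arrays lay near naive and far from DBS. It fell by 1.38 in DBS relative to naive (SE 0.08, limma adjusted p = 4.5e-06) and by 1.04 relative to sham (limma adjusted p = 0.000159), and the -0.33 between sham and naive did not pass (limma adjusted p = 0.113). Profiles 5, 6 and 7 differed from naive by -1.34, -1.25 and -1.21, and all were also called lower than in sham, profiles 6 and 7 by -0.92 and -0.90. Their differences of -0.35, -0.33 and -0.31 between sham and naive did not pass (limma adjusted p 0.0985 to 0.475).

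In falling profiles 3 and 8 DBS replicate 2 was close to the other groups. Profile 3 had -1.89, -0.11, -1.63 and -1.94 in DBS, -0.21, -0.02, -0.25 and 0.08 in sham and 0.09, 0.06 and 0.11 in naive. It was called at -1.48 (SE 0.33, limma adjusted p = 0.0156), with a gap of 0.17 between DBS replicate 2 and the nearest naive array, and lost the call without naive replicate 1, 2 or 3 (limma adjusted p 0.0511, 0.0613 and 0.0571) and with robust eBayes (limma adjusted p = 0.0627). Profile 8 had -0.74, 0.28, -0.54 and -1.11 in DBS and 0.57, 0.86 and 0.47 in naive. It was called at -1.16 (SE 0.23, limma adjusted p = 0.00786), and lost the call without naive replicate 2 (limma adjusted p = 0.0512).

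The only called feature of at least 2-fold with overlap showed the same array more sharply. Feature 17464, singled out after its values were seen, had -2.86, 0.01, -3.34 and -3.85 in DBS, -0.06, -0.13, -0.14 and -0.08 in sham and -0.35, -0.09 and -0.06 in naive. In 3 DBS pools it was far below the other groups, and in DBS replicate 2 it was among them. The difference between DBS and naive was -2.35 (SE 0.65, limma adjusted p = 0.0449). It was -3.19 without DBS replicate 2 (limma adjusted p = 1.18e-05), and leaving out any other array ended the call (limma adjusted p 0.0571 to 0.146). A further 17 features differed by at least 2-fold in their means without a call, 5 higher and 12 lower in DBS. Between pairs of arrays they differed by a median of 1.36 in DBS and 1.08 in naive.

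Over all features, correlations between arrays were 0.852 to 0.896 within DBS, 0.922 to 0.930 within naive and 0.732 to 0.827 between DBS and naive. Features are not independent replicates, so no p is given. The array medians were between -0.00396 and 0.00535, and the SD over features was 0.363 to 0.387 in DBS and 0.376 to 0.384 in naive. Slide, scan and labelling batches are not stated for these arrays, so a batch that coincides with a group cannot be told apart from it.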

How the data were processed

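The deposited values are 1 log ratio per numbered feature and array, taken as log2, with array medians near 0. For background correction, normalization and spot filters the method is not given in the sources used. The labels call the arrays biological replicates, each a pool of 3 rats; the number of arrays limits the precision. Group means were fitted to all 45220 features and all 11 arrays with limma 3.58.1 (R 4.3.3; lmFit and eBayes), two-sided, with Benjamini-Hochberg adjustment over all features and a threshold of 0.05. The fit was tested on simulated data. Figures were drawn with matplotlib 3.10.9.

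Changed features of at least 2-fold were joined by complete linkage up to a root mean square difference of 0.15. Described in full were the 12 rising and 8 falling profiles of largest mean difference without overlap, and the 2 features of largest change each way. The comparison, lists and rules were chosen with earlier results of these data known. Alternatives were median centring, quantile normalization, 7 arrays, robust eBayes, array weights, an SD filter, the replicate block and leaving out each array.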

Additional observations from a re-analysis of the deposited data

Results flagged for a closer look

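Among the profiles and features described, the values of the 4 DBS arrays and of the 4 sham arrays were each tested for an array far from the rest with Dixon's ratio, in 48 groups, and 4 were marked. Chance marks about 1 in 20 groups. Features 3387 and 4623 are each counted both as a feature and as a profile, and features 27095 and 2583 also lie in rising profile 1. DBS replicate 2 stood apart in feature 3387, at -2.03 against -2.66, -2.62 and -2.68 on the other DBS arrays. It also stood apart in falling profile 3, at -0.11 against -1.89, -1.63 and -1.94. Sham replicate 2 stood apart in falling profile 7, at 0.68 against 0.86, 0.87 and 0.87. Rising profile 5, with DBS replicate 3 at 3.69, was not marked by this ratio.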

How the results depend on the processing

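The 3694 calls moved by over 1.5 times when naive replicate 2 or 3 was left out, and by less in the other alternatives. Leaving out each array in turn gave 2083 to 3717 changed features, 1410 to 2084 higher and 673 to 1633 lower. Between 252 and 300 features changed at least 2-fold. Leaving out each DBS or naive array gave 10987 to 13508 features without overlap, against 9107 with all arrays. That count cannot fall when an array is left out. In the same fits, 62 to 111 of the 508 features of highest sham level were called lower. The lower calls numbered 1061 when the sham arrays were left out of the fit and 1024 with the replicate block. The deviations of arrays of the same number had correlations of -0.04, -0.08 and -0.10 between DBS and naive. They were 0.1, -0.12 and -0.1 between DBS and sham, and -0.09, -0.01 and 0.15 between sham and naive. Whether arrays of the same number share a batch was not tested. The block gave 2807 changed features. Of the 20 profiles described in full, the 12 rising ones and the falling ones except profiles 3 and 8 kept their direction and call in all 19 alternatives, and none of the 20 changed direction. The other profiles were not followed through the alternatives, except feature 17464, which lost its call in 13 of the 19 alternatives. Signal over background could not be computed, since only log ratios were given. Array weights by group and the fits of the features by sham level were added after seeing the data; the causes of these shifts were not tested.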
